A study of Drosophila melanogaster with 4 samples.

Results

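The knirps (kni) and knirps-like (knrl) locus was examined for binding of Psc, by chromatin immunoprecipitation and sequencing (ChIP-seq) in Drosophila melanogaster embryos of the wild-type strain Oregon-R at 14 to 16 h of development. Whole embryos from flies kept in population cages were cross-linked with formaldehyde. The locus was taken as the stretch of chromosome arm 3L from 20590000 to 20710000 (FlyBase release 5, per the file headers), and its members were all deposited regions of enrichment, called clusters here, that overlapped it. There were 22 such clusters among 13747 in 3 lists: 3 of 2628 in the list of ChIP replicate 1, 2 of 2432 in that of ChIP replicate 2, and 17 of 8687 in a combined list of the replicate set. Each ChIP sample had an input sample (chromatin that was not immunoprecipitated) of the same replicate number. By that number the 4 samples formed 2 ChIP and input pairs, all of 1 strain, genotype and stage. Whether replicates 1 and 2 are separate collections of embryos is not said in the labels, so their spread may be technical.

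Psc is a RING finger subunit of Polycomb repressive complex 1, a chromatin complex that keeps developmental regulator genes silent in cells where they were not switched on earlier. In flies it is recruited through Polycomb response elements, DNA elements that can lie at a promoter or far from it, and it is often found over neighbouring transcription factor genes. The kni gene (CG4717) encodes a zinc finger repressor of the nuclear receptor family that has no ligand-binding domain. It is a gap gene, needed early in embryogenesis for the abdominal segments, and acts again later in the tracheal branches, the head and the primordium of a wing vein. Its neighbour knrl (CG4761) encodes a related protein and shares the later tracheal and wing vein roles with kni.

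In the RefSeq gene table used for names, knrl comes first along 3L and kni second. Between them the table lists 7 genes, of which 6 are lncRNA genes and 1, CG13251, is protein-coding. The flanking protein-coding genes are CG13250 before knrl and cmpy after kni. The table is of genome release 6 and the clusters are of release 5, so the order of the genes is given, but no cluster was assigned to a gene, promoter, exon or intron. Besides kni and knrl, the gene eg, the remaining member of the Knirps family, lies on 3L as well, and the gap genes hb, tll and hkb lie on 3R, Kr on 2R and gt on X. No Psc value was given to these genes for the same reason.

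Psc occupied a pair of broad regions of the kni and knrl window in both replicates, one near its start and one near its end. The first region was the stronger and the second the wider in each of the 3 lists. The strength is given as the authors' enrichment score for a cluster. The lists do not state its scale, so a score is read here only against other scores of the same list. The depth behind a score is unknown, and no error can be put on a single one. In whole embryos, binding in fewer cells and weaker binding per cell cannot be told apart.

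The first region spanned 3L 20612781 to 20616476 in replicate 1 and 20612697 to 20616326 in replicate 2. Its score was 1.31 in replicate 1, higher than 93.9% of the clusters of that list, and 1.35 in replicate 2, higher than 93.9% there too. On 3L alone it ranked 21 of 444 clusters by score in replicate 1 and 25 of 385 in replicate 2. It thus stood high in each list by score, with 20 clusters of the arm above it in replicate 1 and 24 in replicate 2.

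The position of this first region was closely matched between the replicates. Its width was 3696 bp in replicate 1 and 3630 bp in replicate 2 (mean 3663 ± 46.7 bp, SD, n = 2). The starts differed by 84 bp and the ends by 150 bp. The 3546 bp found in both replicates were 93.8% of the length found in either, against a median of 77.0% (interquartile range 61.6 to 89.0) over the 1294 regions of the genome that could be paired between the replicate lists. Of those pairs, 86.3% shared a smaller part of their length than this region did. By distance in bp it stood out less: 25.8% of the pairs had a smaller difference in start and 40.3% a smaller difference in end. The pairs were not matched for width.

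The second region spanned 3L 20683120 to 20689992 in replicate 1 and 20685294 to 20689852 in replicate 2. Its score was 0.69 in replicate 1, higher than 73.6% of that list, and 0.67 in replicate 2, higher than 75.8%. By score it ranked 79 of 444 on 3L in replicate 1 and 78 of 385 in replicate 2, well behind the first region in both. By width the order was turned: at 6873 bp it was the 10th widest cluster of 3L in replicate 1, and at 4559 bp the 24th widest in replicate 2, where the first region ranked 43 and 40.

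The replicates differed in the left part of the second region. Its mean width was 5716 ± 1636 bp (SD, n = 2), a spread that was wide beside that of the first region. The ends lay 140 bp apart, but the replicate 1 cluster began 2174 bp earlier, a larger difference in start than in 94.4% of the paired regions, whose median was 212 bp. Those pairs were not matched for width, and most were narrower: this region ranked 103 of 1294 by width in replicate 1 and 171 in replicate 2. All of the replicate 2 cluster lay inside the replicate 1 cluster and made up 66.3% of it, and 32.6% of the paired regions shared a smaller part of the length found in either. The first region agreed in both edges, and the second agreed in its right edge alone.

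**Figure D1:**
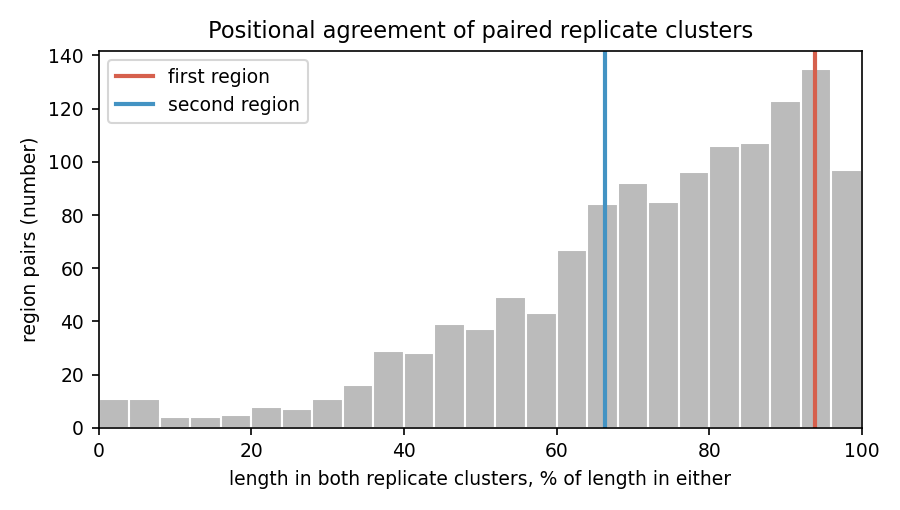
Histogram of positional agreement over the 1294 paired regions, with the length in both replicate clusters as a percentage of the length in either on the x axis and the number of region pairs on the y axis. The vertical lines mark the first region of the kni and knrl window at 93.8% and the second at 66.3%, on either side of the median of 77.0%.

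The wider region of the pair was the one with the lower score. To place this within the lists, each region was set against the clusters of its own list whose width was within 20% of its own. For the first region, the 197 such clusters of replicate 1 had a median score of 0.77 (interquartile range 0.63 to 1.16), and 81.7% of them scored lower than its 1.31. In replicate 2, the 237 clusters of like width had a median of 0.84 (0.62 to 1.22), and 81.9% scored lower than its 1.35. The first region was therefore strong for its width in both replicates.

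The second region scored low for its width in both replicates, more clearly in replicate 1 than in replicate 2. In replicate 1 the 75 clusters of like width had a median score of 1.24 (0.89 to 1.56), and 8.0% of them scored lower than its 0.69. In replicate 2 the 174 clusters of like width had a median of 0.89 (0.69 to 1.30), and 21.3% scored lower than its 0.67. Read the other way, it was broad for its score: among clusters within 0.1 of its score, the median width was 2018.5 bp in replicate 1 and 2103 bp in replicate 2, and 98.6% and 94.0% of them were narrower. These are descriptions of 1 region in 2 samples and were not tested.

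**Figure D2:**
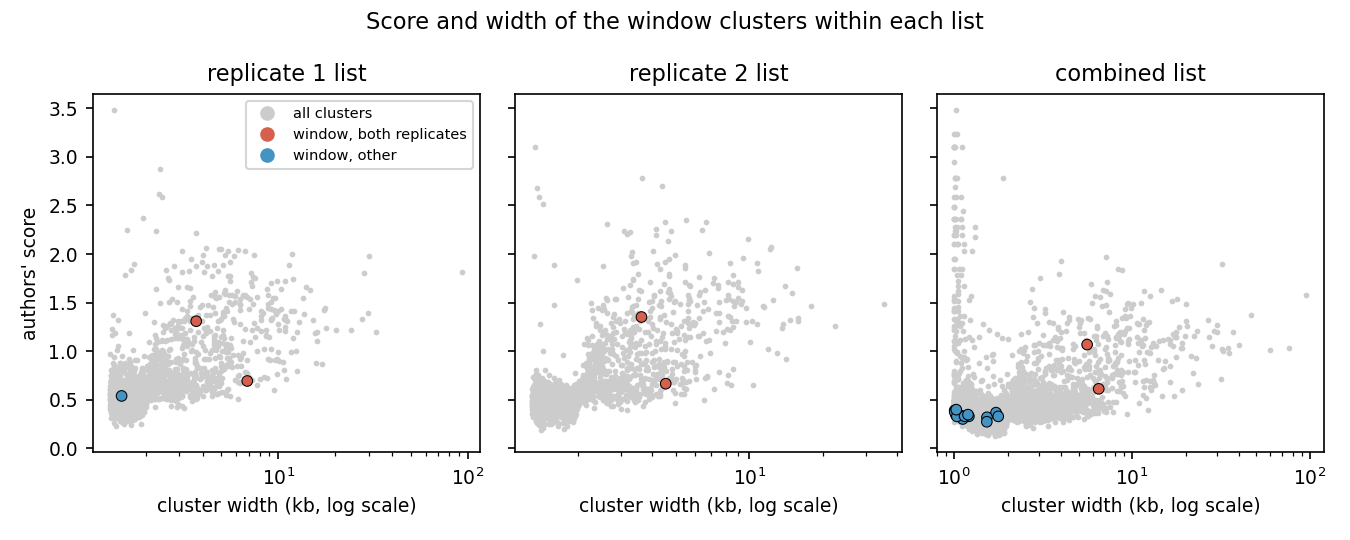
Authors' score (y axis, scale not stated) against cluster width in kb (log x axis) for every cluster of each list, in grey, with the clusters of the kni and knrl window found in both replicates in red and the other window clusters in blue. In all 3 panels the red point with the higher score is the narrower of the pair, at 1.31, 1.35 and 1.07.

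The replicate 1 list held 1 more cluster in the window, at 3L 20667558 to 20669050, for which replicate 2 listed nothing. It was 1493 bp wide and scored 0.54, higher than 40.9% of its list and below the list median of 0.57. The narrowest cluster in either replicate list was 1301 bp wide, and 27.4% of the replicate 1 clusters were narrower than this one. A list holds only what passed the authors' threshold, so the signal here in replicate 2 is unknown.

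In total, 2 of 3 replicate 1 clusters of the window shared at least 1 bp with a replicate 2 cluster, against 51.4% over the whole replicate 1 list. Both replicate 2 clusters shared with replicate 1, against 58.7% over the whole replicate 2 list. With 5 clusters in all, these counts are too few to set the window apart from the background. Clusters covered 10.1% of the window in replicate 1 and 6.82% in replicate 2 (mean 8.44% ± 2.28, SD, n = 2), compared with 4.23% and 3.47% of 3L. Over 2L, 2R, 3L, 3R and X together the covered share was higher than on 3L, at 5.4% in replicate 1 and 4.78% in replicate 2. The 8105 bp covered in both replicates were 66.7% of the 12146 bp covered in either. They lay in the pair of broad regions by construction, since those are the clusters of the window found in both replicates.

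**Figure D3:**
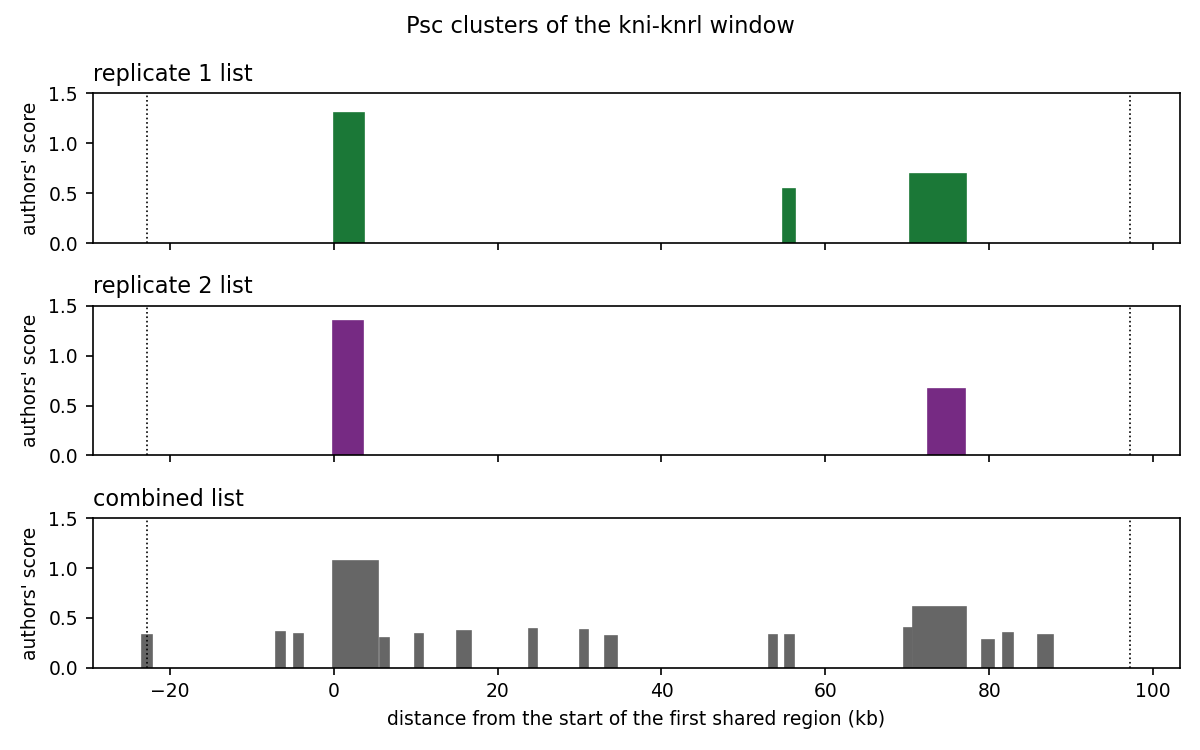
Map of the Psc clusters of the kni and knrl window in the 3 lists, drawn to scale, with distance in kb from the start of the first region found in both replicates on the x axis and the authors' score on the y axis; bar width is cluster width and dotted lines are the window ends. Both replicates show a strong cluster at the left, at 1.31 and 1.35, and a weaker, wider one at the right, at 0.69 and 0.67. The combined list adds bars that are narrower and lower than this pair.

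The shared parts of both regions lay 68967 bp from each other, and apart from the replicate 1 cluster described above neither replicate list had anything between them. On 3L, 198 regions could be paired between the replicates, and the median stretch between neighbours was 32.5 kb. Of the 197 stretches between neighbours, 74 were longer than the one between the pair. Before the first region the nearest such region lay 545 kb away, and 9 of the 197 stretches were longer. Its score was 0.52 in the replicate 1 list and 0.46 in the other. That stretch was not empty: each replicate list held 5 clusters in it that met no cluster of the other list. Any cluster that met one without forming a pair was left out of this count. After the second region the next region of both lists lay 99.2 kb away, with scores of 0.74 and 0.70, and 57 of the 197 stretches were longer. Of the 3 separations, the one before the first region was thus the only one exceeded by few others on the arm.

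The combined list held the same pair of broad regions. All 3 replicate 1 clusters of the window shared at least 1 bp with a combined cluster (96.3% over the whole replicate 1 list), as did both of replicate 2 (97.4% over that list). The first became a cluster of 5590 bp (3L 20612640 to 20618229) with a score of 1.07, higher than 97.2% of the combined list. It contained the whole of both replicate clusters and reached farther to the right than either, so that replicate 1 covered 66.1% of it and replicate 2 covered 64.9%. The second became a cluster of 6496 bp (3L 20683499 to 20689994) with a score of 0.61, higher than 93.0% of the list. Replicate 2 covered 70.2% of this cluster, and replicate 1 covered all but its last 2 bp, so the combined left edge was near that of replicate 1.

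Among combined clusters of like width, 88.6% scored lower than the first region and 42.9% lower than the second. The second region was thus less unusual for its width there than in the replicate lists. The combined list was made from the same ChIP samples and gives no independent measurement.

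The other 15 combined clusters of the window were narrower than either broad region and scored lower. Their widths reached 1768 bp and their scores 0.40, against combined list medians of 1449 bp and 0.37. Of the 17 in all, 2 were found in both replicate lists (11.8%, against 13.5% over the whole combined list), 2 in replicate 1 alone (11.8%, against 13.0%), 0 in replicate 2 alone (against 10.1%) and 13 in neither (76.5%, against 63.5%). The shares were close to the background, given 17 clusters. The 2 found in replicate 1 alone were 20667827 to 20668970, with a score of 0.33, inside the narrow cluster of that list, and 20682372 to 20683398, with a score of 0.40. The latter lay 100 bp before the second region and met its replicate 1 cluster over 279 bp.

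The 13 combined clusters found in neither replicate list had scores of 0.27 to 0.39, with a median of 0.34, and 11 of them scored below the combined list's median of 0.37. Their widths ran from 1006 to 1768 bp, with a median of 1117 bp. Of the 13, 9 were narrower than the 1301 bp at which both replicate lists began (57.7% of such clusters over the whole list). The first of them lay across the start of the window (20589391 to 20590599, score 0.33). Before the first region came 20605783 to 20606826 (score 0.36) and 20607939 to 20609021 (score 0.34).

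Directly behind the first region, 237 bp from its end, lay 20618467 to 20619583 with a score of 0.30. Farther to the right followed 20622703 to 20623725 (score 0.34), 20627818 to 20629535 (score 0.37), 20636625 to 20637630 (score 0.39), 20642790 to 20643796 (score 0.38) and 20645881 to 20647408 (score 0.32). After a stretch of 18474 bp without clusters came 20665883 to 20666917 (score 0.33). Behind the second region lay 20691889 to 20693413, which had the lowest score of the window (0.27), 20694474 to 20695668 (score 0.35) and 20698778 to 20700545 (score 0.33). No further combined cluster was listed for 77736 bp. The clusters found in neither replicate list thus lay on both sides of each broad region, and 9 combined clusters in all lay between the pair.

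Combined clusters were then joined into groups wherever the gap to the next was at most 10 kb. The first region belonged to a group of 9 clusters that spanned 41.6 kb (3L 20605783 to 20647408), the 19th longest of 612 groups on 3L. The second belonged to another group of 5 clusters over 18.2 kb (3L 20682372 to 20700545), the 98th longest. The groups depended on the gap allowed: at 5 kb the first spanned 23.8 kb with 6 clusters, and at 25 kb both regions fell into 1 group of 22 clusters over 148 kb. At 10 kb, clusters filled 36.3% of the first group and 66.1% of the second. In each replicate list both regions stood alone at this distance, with no other cluster within 10 kb.

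The window was last compared with the rest of the arms, cut into 986 windows of the same width on 2L, 2R, 3L, 3R and X. The kni and knrl window had more of its length covered than 85.6% of them in replicate 1 and 81.6% in replicate 2, and than 85.5% in the combined list. Counting the length covered in both replicates, which was 6.75% of the window, it ranked 131 of 986, and 516 windows had none. On 3L it ranked 20 of 203 by this measure. By number of clusters it ranked lower than by covered length in the replicate lists, at 263 of 986 in replicate 1 (3 clusters against a median of 2) and 306 of 986 in replicate 2 (2 against a median of 1). In the combined list it ranked 67 of 986, with 17 clusters against a median of 8. The strongest cluster of the window exceeded the strongest of 88.5% of windows in replicate 1 and of 89.6% in replicate 2. Windows without any cluster, 262 in replicate 1 and 258 in replicate 2, count as exceeded in these shares and in those of covered length. By these measures the locus was above the median of the arms in both replicates, but many windows exceeded it. These ranks describe the windows and were not tested.

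**Figure D4:**
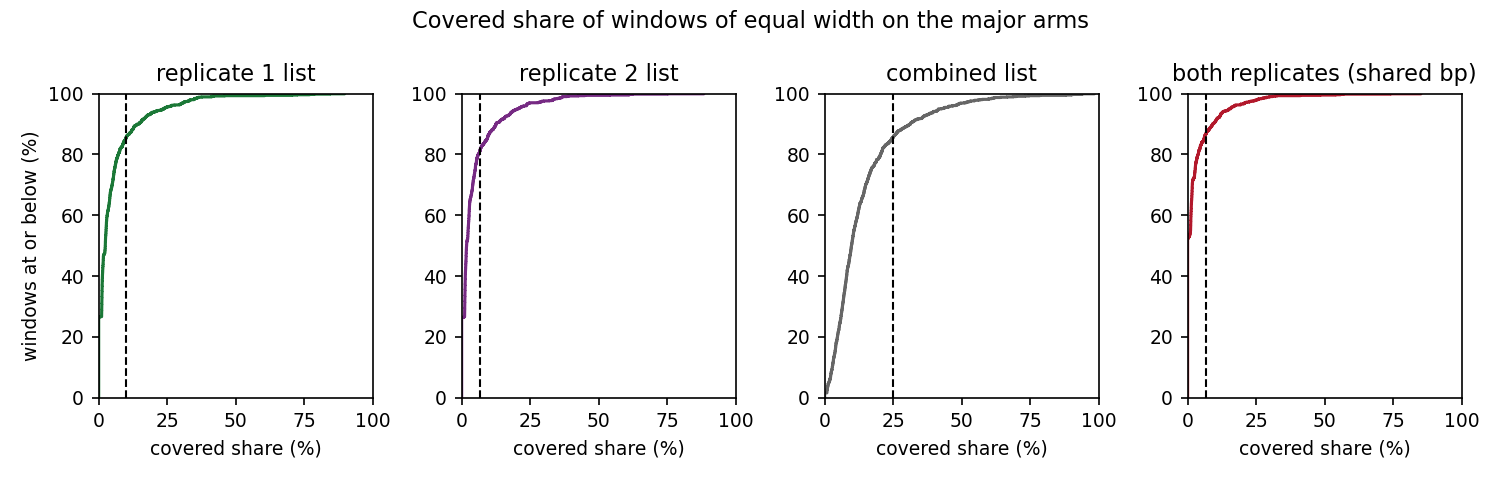
Cumulative share of windows (y axis, percent of 986 windows at or below a value) by the share of their length covered by Psc clusters (x axis, percent), for each list and for the length covered in both replicates. The dashed line marks the kni and knrl window, at 10.1%, 6.82%, 24.9% and 6.75% covered, on the upper part of each curve.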

How the data were processed

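ChIP-seq for Psc and its inputs gave 1 list of clusters per ChIP sample and 1 combined list. The labels name the inputs but do not say how they were used, and they were not analysed here by themselves. The submitters' processing notes name Bowtie 0.12.7, an aligner for short reads, and coordinates are of FlyBase release 5, per the file headers. How clusters were called, scaled and combined over replicates is not given in the sources used here. In the deposited lists, the score of each cluster was made by the authors; its scale is not stated, so it was used within a list only.

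Clusters overlapping the window were taken from all lists. Sharing meant an overlap of at least 1 bp. Regions were paired between replicates where each was the other's longest overlap. Windows of equal width (120001 bp) were laid end to end in step with the kni and knrl window. Python 3.11.15, numpy 2.4.6, pandas 2.3.3 and matplotlib 3.10.9 were used. The overlap, joining and coverage steps were tested on simulated data, and overlap counts were equal to those of bedtools 2.31.1. No test was made, since there is 1 group of 2 ChIP samples. The clusters named are all those of the window. The members, lists and comparisons were chosen with earlier results of these data known, and the comparison with clusters of like width was chosen after the window's values were seen. Alternatives were other overlap, window, joining and width settings, lists cut by score or length, and each replicate alone. Sequences of the regions, promoters and proteins were not analysed here.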

Additional observations from a re-analysis of the deposited data

How the results depend on the processing

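Of 29 alternatives to 12 results, 24 stayed within the allowed spread. The 4 replicate clusters shared in the window and the 2 combined clusters found in both replicates kept those numbers under each overlap, width and list setting run. The values given above fixed this in advance. All overlaps were 64.9% or more, and all these clusters were wider than 1301 bp. The 4 replicate clusters scored above their list medians and lay at least 14069 bp from any neighbour in their list. These settings therefore say nothing about how stable the numbers are. The covered share of the window, 8.44% on average, ranged from 6.82% without replicate 1 to 10.1% without replicate 2. With 2 replicates these are the values of the single replicates, so leaving 1 out could not move the result beyond their SD of 2.28. Both settings count among the 24, but they say nothing about how stable the share is. The median score of the 17 combined clusters, 0.34, became 0.35 with the window narrowed by 10 kb and 0.35 with it widened by 10 kb. By construction the set of clusters changed, to 16 and 18. The group around the first region, 41.6 kb at a joining distance of 10 kb, spanned 23.8 kb at 5 kb and 148 kb at 25 kb, where it also took in the second region. The share of replicate 2 clusters of like width that scored below the second region, 21.3%, was 14.6% with widths within 10%; the cause was not tested. The settings for clusters of like width were chosen after seeing the data. No paired analysis was possible because the lists used are all of the ChIP group and no result comes from a test. The alternative for promoter motifs was not run, as no sequence was used, and scores were not recomputed without a replicate, since each list stands by itself. Unknown read numbers limit all scores.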
